A study of Rattus norvegicus with 12 samples.

Results

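The genes described here are 35 genes of macrophages and other myeloid cells, measured in whole rat heart after sorafenib or water. They were taken by symbol from the count tables of day 14 and day 28, and 35 of 35 were found among the 34322 genes of each table. The hearts came from wild-type male rats of the strain SD. Treated rats received sorafenib, a cancer drug that inhibits RAF kinases and several receptor tyrosine kinases, at 50 mg per kg by gavage every day, and control rats received an equal volume of deionized water. Hearts were taken at 14 or 28 days, which gives 4 groups of 3 libraries: sorafenib day 14 (replicates 5, 6 and 7), water day 14 (2, 3 and 7), sorafenib day 28 (2, 3 and 4) and water day 28 (2, 3 and 4). The title of the series names cardiac toxicity of sorafenib and the splicing factor RBM20 as its subject. The labels do not say that each library is a different rat, so p-values here measure the spread between libraries, part of which may be technical.

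Macrophages are phagocytes that live in the heart between the muscle cells, where they clear dying cells and debris, present antigen and feed signals to vessels and fibroblasts. Some settle before birth and renew locally, and others arrive as blood monocytes. Their survival depends on the receptor encoded by Csf1r, and their identity depends on the transcription factor PU.1, encoded by Spi1. They make complement C1q, carry scavenger and Fc receptors, digest cargo in lysosomes rich in cathepsins and lysozyme, and produce superoxide with an NADPH oxidase whose membrane subunit is encoded by Cybb.

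Total counts ran from 13746366 to 18534816 at day 14 and from 16785038 to 26403196 in 5 libraries of day 28. Sorafenib day 28 replicate 3 had only 1036483 counts, so a single count there is worth 0.965 CPM (counts per 1e6 counts), and it stood apart from the other libraries on the first principal component. Sorafenib day 28 replicate 2 carried 1.31% of its counts on the mitochondrial rRNA gene mt-Rnr2, against 0.0244% to 0.205% in the other 11 libraries. The gene Rn45s, which holds the precursor of ribosomal RNA, took 1.643% in sorafenib day 28 replicate 3, 1.255% in replicate 2 and 0.0977% to 0.842% in the other 10 libraries. The 35 genes together took between 0.0277% and 0.0735% of the counts of a library, with the lowest share in sorafenib day 28 replicate 2 and the highest in the shallow replicate 3 of the same group. Heart muscle markers summed to 35550 to 74390 CPM in the sorafenib libraries and 43520 to 85890 CPM in the water libraries, so the defining markers of the labelled tissue were present.

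Averaged over both days, with equal weight for each day, 7 of the 34 genes tested fell with sorafenib and 0 rose (edgeR's quasi-likelihood test, Benjamini-Hochberg adjusted p below 0.05 over all genes). The 7 were P2ry6, Cd83, Adgre1, Ly86, Cybb, C1qb and C1qa, with log2 fold changes of sorafenib over water between -2.89 and -0.98. They make up 20.6% of the genes tested, against 2.41% of all 18174 genes called lower and 2% called higher. At an unadjusted p below 0.05, 18 lay lower and 1 higher, against 13.2% and 11% of all genes. Fold changes below 0 were found for 32 of the 34, against 50.8% of all genes, and the median was -0.80 against -0.01 over all genes. The genes rose and fell together between libraries, as described below, so the 32 are not separate observations. Of the 34, S100a8, Cx3cr1, Trem2, Cd86 and Ly86 reached the level of the filter on low counts in fewer than 3 sorafenib libraries and entered through water libraries, which favours a fold change below 0. Without these 5, 27 of 29 lay below 0 with a median of -0.77, and 6 passed. S100a9, the remaining gene, was too low in count to test. In whole tissue, fewer cells of a type and less RNA per cell cannot be told apart.

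How many passed depended on which libraries entered. With all libraries 438 of all 18174 genes were called lower, and that number changed as well. The count was 7 without the shallow sorafenib day 28 replicate 3 (334 of 18641 genes lower), with Csf1r in place of C1qb. It was 8 without sorafenib day 14 replicate 5 (299 of 18601) and 5 without water day 14 replicate 7 (215 of 18716). It was 6 without water day 28 replicate 2 (407 of 18730) or sorafenib day 28 replicate 4 (984 of 18765). No call (0) was left when sorafenib day 28 replicate 2, which had the high share of mt-Rnr2, was omitted, nor without water day 14 replicate 3. Few genes of any kind were called lower in these fits, 20 of 18682 and 30 of 18703, and the median of the genes described here was -0.67 and -0.85. The count was 1 without sorafenib day 14 replicate 6 (102 of 18732 genes lower) and 3 without water day 28 replicate 3 (142 of 18764). It was 2 without sorafenib day 14 replicate 7 (157 of 18785), water day 14 replicate 2 (182 of 18712) or water day 28 replicate 4 (151 of 18779). Every fold change of the 7 stayed below 0 in all of these fits. With the number in the title as a block, 0 of the 34 passed, and 26 of all 18174 genes were called lower. In that fit the effect of day 14 rests on the libraries numbered 7 alone, the only number both groups share.

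**Figure D1:**
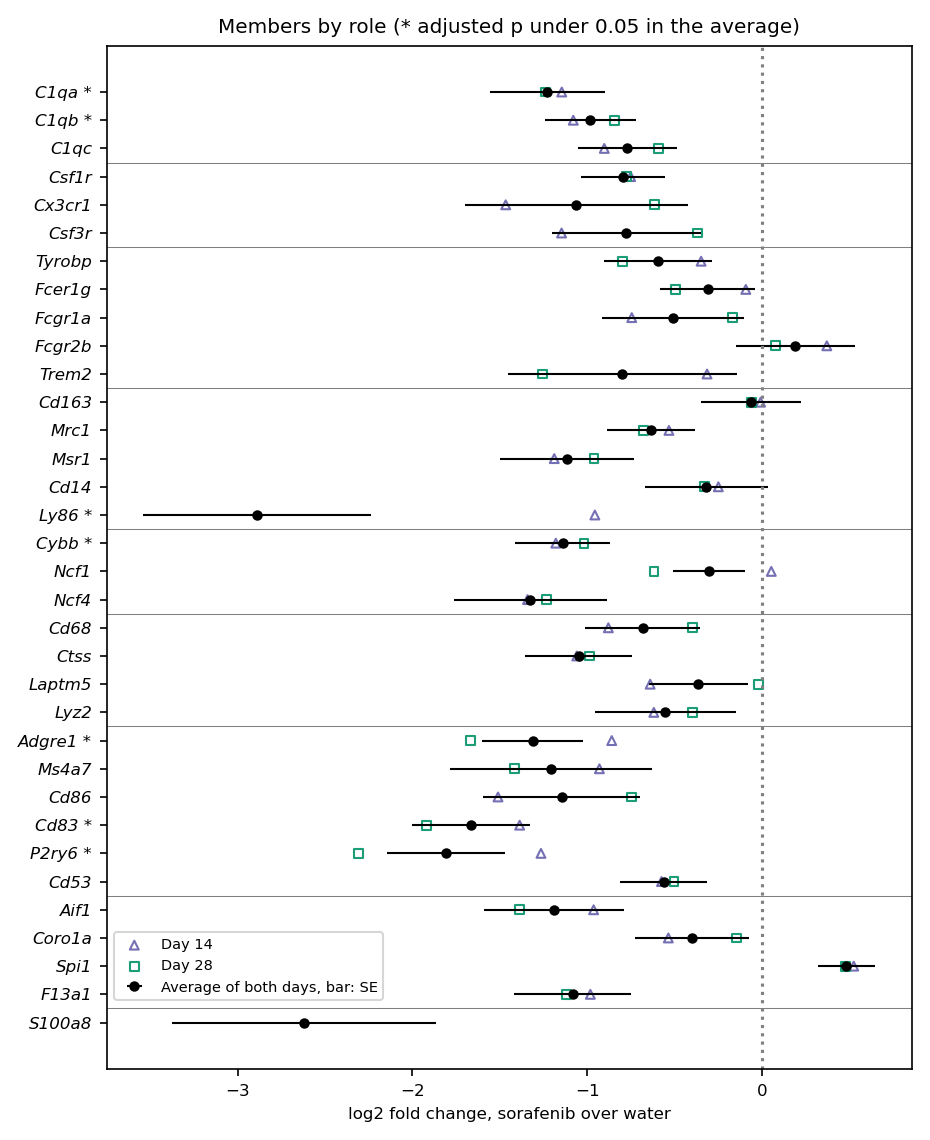
Log2 fold change of sorafenib over water (x axis) for the 34 genes tested, grouped by role from C1q chains at the top to S100a8 at the bottom. Black points are the average of both days with a bar of 1 SE, triangles are day 14, squares are day 28, and an asterisk marks an adjusted p below 0.05 in the average. Of the 34 black points 32 lie left of 0, and the exceptions are Spi1 and Fcgr2b.

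For the genes that passed and have an entry in the RefSeq promoter table of the assembly GRCr8, the 300 bases around the start (250 before it and 50 after it) are shown, because these genes moved the same way and because PU.1 binds a core that holds the letters GAGGAA. Capitals mark GAGGAA or its reverse complement TTCCTC, and each promoter is written 5′ to 3′ on the strand of the gene. P2ry6 and Ly86 are named only.
C1qa, GRCr8 chr5:154419884-154420183, minus strand: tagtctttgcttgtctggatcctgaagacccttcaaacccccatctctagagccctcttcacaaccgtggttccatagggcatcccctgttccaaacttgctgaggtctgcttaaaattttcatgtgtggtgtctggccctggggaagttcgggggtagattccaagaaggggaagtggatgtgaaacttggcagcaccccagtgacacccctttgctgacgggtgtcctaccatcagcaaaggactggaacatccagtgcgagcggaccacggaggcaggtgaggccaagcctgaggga
C1qb, GRCr8 chr5:154407778-154408077, minus strand: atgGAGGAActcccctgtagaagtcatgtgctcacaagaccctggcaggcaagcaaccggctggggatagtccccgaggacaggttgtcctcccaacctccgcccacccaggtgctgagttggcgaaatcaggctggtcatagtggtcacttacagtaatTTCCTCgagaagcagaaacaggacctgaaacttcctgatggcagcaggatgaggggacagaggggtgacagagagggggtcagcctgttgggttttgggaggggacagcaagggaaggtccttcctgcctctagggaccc
Cybb, GRCr8 chrX:16065016-16065315, minus strand: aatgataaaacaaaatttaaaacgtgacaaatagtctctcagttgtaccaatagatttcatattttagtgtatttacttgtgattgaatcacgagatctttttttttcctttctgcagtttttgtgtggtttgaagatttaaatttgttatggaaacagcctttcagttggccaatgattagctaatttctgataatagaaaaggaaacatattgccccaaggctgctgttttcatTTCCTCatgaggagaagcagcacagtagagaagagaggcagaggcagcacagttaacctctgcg
Adgre1, GRCr8 chr9:2329190-2329489, plus strand: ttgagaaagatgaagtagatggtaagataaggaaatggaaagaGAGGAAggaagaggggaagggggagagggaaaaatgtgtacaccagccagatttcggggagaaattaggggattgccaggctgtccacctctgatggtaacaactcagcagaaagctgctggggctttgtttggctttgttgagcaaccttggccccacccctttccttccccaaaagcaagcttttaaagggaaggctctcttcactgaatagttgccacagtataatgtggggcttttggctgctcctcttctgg
Cd83, GRCr8 chr17:21112628-21112927, minus strand: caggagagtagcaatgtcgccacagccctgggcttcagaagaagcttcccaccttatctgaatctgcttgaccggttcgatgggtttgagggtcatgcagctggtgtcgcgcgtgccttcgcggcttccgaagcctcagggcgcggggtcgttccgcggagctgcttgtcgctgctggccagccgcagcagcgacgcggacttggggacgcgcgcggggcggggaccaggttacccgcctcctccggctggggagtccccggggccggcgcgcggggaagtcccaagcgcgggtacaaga
The 6 letters occurred on either strand in 16 of the 23 genes, out of the 35, that have an entry (69.6%), against 27.5% of all 27457 promoters of the same length. C1qb held it at 247 and at 90 bases before the start, Cybb at 14 and Adgre1 at 207 bases before it, while no match lay in the windows of C1qa and Cd83. The longer form GAGGAAGT, which contains the shorter one, was found in 3 of 23 (13%, in Ctss, Cd53 and F13a1), against 2.44% of all promoters. These matches describe letters only, and binding was not measured.

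Complement C1q is a protein of 3 kinds of chain that tags cells and debris for removal, and resident macrophages are a main source of it. The genes C1qb (149118843 to 149124394), C1qc (149127424 to 149130732) and C1qa (149133635 to 149136482) lie side by side on the minus strand of chromosome 5 in mRatBN7.2. At day 14, C1qa had 11.3, 2.82 and 6.48 CPM in the sorafenib libraries, against 21.6, 12.7 and 11.5 CPM in the water libraries. All 3 sorafenib values were below the lowest water value, replicate 5 only just. At day 28, C1qa had 4.43, 13.4 and 6.57 CPM with sorafenib, against 12.5, 12.8 and 23.5 CPM with water, and the shallow replicate 3, with 16 counts, fell inside the water range. Averaged over both days C1qa fell by 1.23 ± 0.33 on the log2 scale (SE, edgeR adjusted p = 0.0492).

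C1qb had 7.14, 2.01 and 5.14 CPM with sorafenib at day 14, against 13.03, 9.15 and 8.19 CPM with water. At day 28 it had 7.82, 10.02 and 11.6 CPM with sorafenib, against 12.9, 16.8 and 23.9 CPM with water. The groups did not overlap on either day, and C1qb fell by 0.98 ± 0.26 (adjusted p = 0.0490). C1qc, the third chain, lay at -0.77 ± 0.29 and did not pass (adjusted p = 0.12). C1qa passed in 3 of 18 alternative fits, DESeq2 and those without sorafenib day 14 replicate 5 or sorafenib day 28 replicate 3. C1qb passed in 5, DESeq2, the fit without a filter and those without sorafenib day 14 replicate 5, water day 28 replicate 2 or sorafenib day 28 replicate 4. The adjusted p reached 0.16 for C1qa and 0.15 for C1qb without sorafenib day 28 replicate 2.

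**Figure D2:**
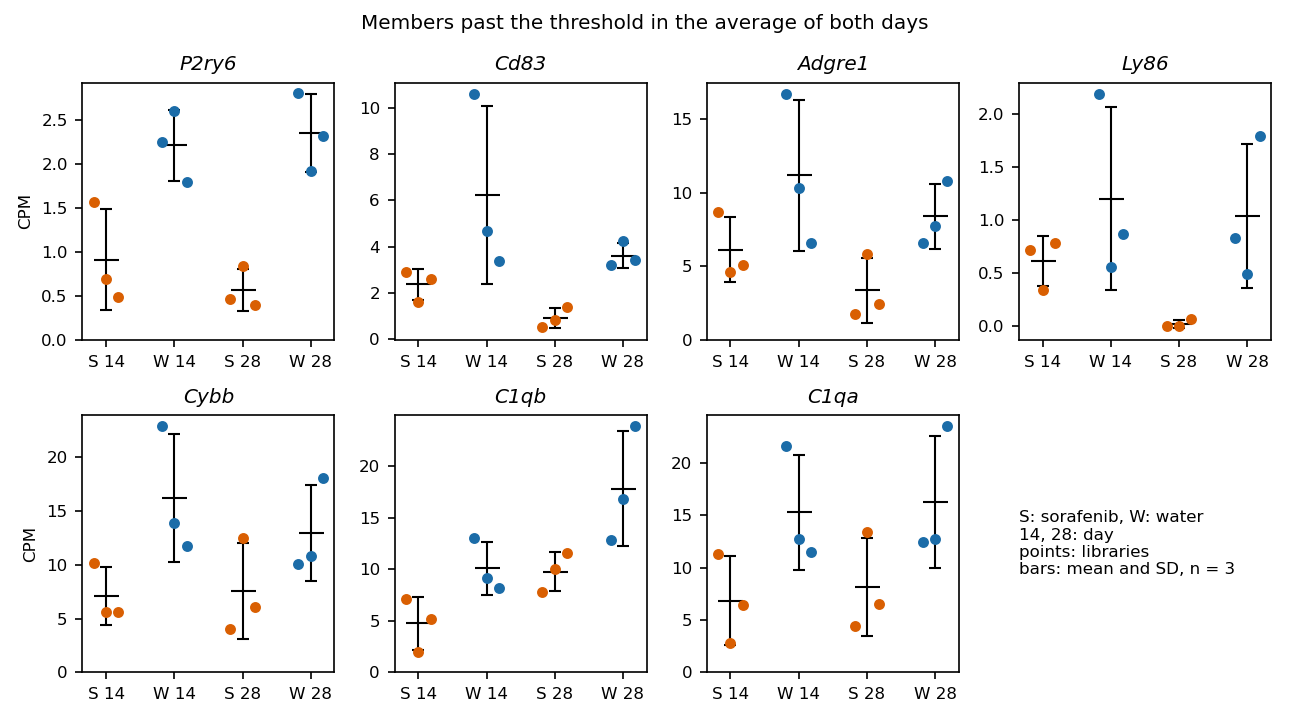
CPM (y axis, linear, a panel per gene) of the 7 genes past the threshold in the average of both days, in sorafenib (S) and water (W) libraries of day 14 and 28. Points are libraries and bars are the mean and SD of 3. In P2ry6, Cd83 and C1qb all sorafenib points lie below all water points of the same day, while in Cybb and C1qa the shallow sorafenib library of day 28 lies among the water points.

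Among the oxidase genes, Cybb encodes the electron-carrying membrane subunit, and Ncf1 and Ncf4 encode cytosolic subunits that join it on activation. Cybb had 10.2, 5.57 and 5.57 CPM with sorafenib at day 14, against 22.9, 13.9 and 11.7 CPM with water, and the groups did not overlap. Its values at day 28 were 4.03, 12.5 and 6.11 CPM with sorafenib, against 10.1, 10.8 and 18.1 CPM with water, where the 12.5 CPM of the shallow library rests on 15 counts. Cybb fell by 1.14 ± 0.27 in the average (adjusted p = 0.0375) and passed in 10 of 18 alternative fits. Of the fits that leave out a library, it was lost without water day 14 replicate 2 or 3, sorafenib day 14 replicate 6 or 7, water day 28 replicate 3 or 4, or sorafenib day 28 replicate 2, with adjusted p between 0.056 and 0.13. At day 14 alone it had the smallest p of the genes described here, with -1.18 ± 0.31 (adjusted p = 0.17).

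Ncf4 lay at -1.33 ± 0.44 and did not pass (adjusted p = 0.090). Ncf1 had 56.3, 145.3 and 100.6 CPM with sorafenib at day 14, against 94.97, 97.9 and 98.3 CPM with water, so the sorafenib libraries lay on both sides of a narrow water range. By day 28, Ncf1 had 93.7, 96.1 and 88.3 CPM with sorafenib, against 89.8, 190.6 and 157.6 CPM with water. Its average change was -0.30 ± 0.21 (adjusted p = 0.38), and its effect at day 28 minus that at day 14 was -0.71 ± 0.41 (adjusted p = 0.9994). An exon of Ncf1 shares 115 of 2828 bases with LOC103691302 on the opposite strand, and the counts were made without a strand setting, so reads of the 2 genes there cannot be told apart.

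The surface proteins held 3 of the genes that fell, and 6 of 6 lay below 0 with a median of -1.26. P2ry6 is a receptor for the nucleotide UDP, which damaged cells release and which triggers phagocytosis in microglia. It had 1.56, 0.689 and 0.484 CPM with sorafenib at day 14, against 2.24, 2.59 and 1.79 CPM with water. The libraries of day 28 gave it 0.460, 0.835 and 0.398 CPM with sorafenib, from 8, 1 and 6 counts, against 2.80, 1.92 and 2.32 CPM with water, from 57, 39 and 49 counts. All sorafenib libraries lay below all water libraries on both days.

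P2ry6 fell by 1.81 ± 0.34 in the average (adjusted p = 0.0185) and was the most persistent call, passing in 15 of 18 alternative fits. Of the fits that leave out a library, the exceptions were those without water day 14 replicate 3 (adjusted p = 0.052) and without sorafenib day 28 replicate 2 (adjusted p = 0.070). Within the days its change was -1.26 ± 0.45 at day 14 (adjusted p = 0.27) and -2.31 ± 0.53 at day 28 (adjusted p = 0.15). The difference between the days was -1.07 ± 0.67 (adjusted p = 0.9994).

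Cd83 is a surface protein of activated dendritic cells and macrophages that also appears on activated lymphocytes. It had 2.88, 1.61 and 2.60 CPM with sorafenib at day 14, against 10.6, 4.68 and 3.36 CPM with water. At day 28 it had 0.518, 0.835 and 1.40 CPM with sorafenib, from 9, 1 and 21 counts, against 3.19, 4.23 and 3.41 CPM with water. The groups were apart on both days, and water day 14 replicate 2 was far above the other water libraries. Cd83 fell by 1.67 ± 0.34 in the average (adjusted p = 0.0217) and passed in 14 of 18 alternative fits. Among the fits that leave out a library, it missed the threshold without water day 14 replicate 3 (adjusted p = 0.052), sorafenib day 14 replicate 6 (0.054) or sorafenib day 28 replicate 2 (0.087). Within the days it stood at -1.39 ± 0.43 at day 14 (adjusted p = 0.22) and -1.92 ± 0.49 at day 28 (adjusted p = 0.18).

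Adgre1 encodes the adhesion receptor known in the mouse as F4/80, a standard surface marker of tissue macrophages. It had 8.70, 4.65 and 5.08 CPM with sorafenib at day 14, against 16.7, 10.3 and 6.56 CPM with water, and sorafenib replicate 5 lay inside the water range. Its values at day 28 were 1.78, 5.85 and 2.46 CPM with sorafenib, against 6.62, 7.73 and 10.8 CPM with water, and the groups did not overlap. Adgre1 fell by 1.31 ± 0.29 in the average (adjusted p = 0.0290) and passed in 10 of 18 alternative fits. Where a library was left out, it missed the threshold without water day 14 replicate 2 or 3, sorafenib day 14 replicate 6 or 7, water day 28 replicate 3 or 4, or sorafenib day 28 replicate 2, with adjusted p between 0.051 and 0.12. At day 28 alone it was at -1.67 ± 0.43 (adjusted p = 0.17).

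The other surface proteins did not pass. Cd86, a costimulatory ligand for T cells, lay at -1.15 ± 0.45 (adjusted p = 0.14). Cd53, a tetraspanin of leukocytes, lay at -0.56 ± 0.25 (adjusted p = 0.18). Ms4a7, a membrane protein of macrophages, had 2, 2 and 6 counts with sorafenib at day 28, against 13, 14 and 33 with water. In CPM these were 0.115, 1.67 and 0.398 against 0.638, 0.689 and 1.56. The shallow sorafenib replicate 3 thus lay above all water libraries of that day.

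Scavenger and pattern receptors take up modified lipoproteins, haemoglobin complexes and sugars, or sense bacterial lipids. Ly86 encodes MD-1, the partner of the receptor RP105. It had 0.720, 0.345 and 0.787 CPM with sorafenib at day 14, against 2.19, 0.559 and 0.868 CPM with water, with overlap between the groups. By day 28, Ly86 had 0, 0 and 1 counts with sorafenib, against 17, 10 and 38 counts with water. The ratio of their shares of all counts was 0.0303 (95% interval 0.000756 to 0.175, for counting error only), and the gene was too low to be tested at day 28 alone.

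The fitted change of Ly86 in the average was -2.89 ± 0.65 (adjusted p = 0.0303), a value that depends on the small count added by the model. Ly86 reached the level of the filter on low counts in 2 sorafenib and 5 water libraries, so the filter favoured its sign. The difference between the days was -3.86 ± 1.36, the smallest p of the genes described here in that comparison (unadjusted p = 0.0126, adjusted p = 0.9994). Ly86 passed in 10 of 17 alternative fits of the average. Where a library was left out, the call was lost without water day 14 replicate 2 or 3, sorafenib day 14 replicate 6 or 7, water day 28 replicate 4 or sorafenib day 28 replicate 2, with adjusted p between 0.051 and 0.13.

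No other receptor of this kind passed, though 5 of 5 in the role lay below 0, Cd14, the co-receptor for bacterial lipopolysaccharide, among them. Msr1, the class A scavenger receptor, stood at -1.12 ± 0.38 (adjusted p = 0.10). Mrc1, the mannose receptor of resident macrophages, stood at -0.63 ± 0.25 (adjusted p = 0.15). Cd163, the haemoglobin scavenger receptor of resident macrophages, had 44.8, 17.2 and 24.8 CPM with sorafenib at day 14, against 43.9, 16.9 and 26.9 CPM with water. The libraries of day 28 gave it 25.95, 67.7 and 39.3 CPM with sorafenib, against 37.1, 39.3 and 56.9 CPM with water. Its groups overlapped on both days, and its average change was -0.06 ± 0.29 (adjusted p = 0.92). Cd163 was singled out after its values were seen, as the tested gene below 0 that lay nearest to it.

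Csf1r, the receptor for the macrophage growth factors CSF1 and IL-34, had 42.2, 19.1 and 27.0 CPM with sorafenib at day 14, against 64.5, 47.1 and 37.9 CPM with water. At day 28 it had 20.3, 55.1 and 29.2 CPM with sorafenib, against 46.4, 48.9 and 72.6 CPM with water. In both days a single sorafenib library lay inside the water range, replicate 5 at day 14 and the shallow replicate 3 at day 28. Its average change was -0.79 ± 0.24 and did not pass (adjusted p = 0.071). Csf3r, the receptor for granulocyte growth factor, stood at -0.78 ± 0.43 (adjusted p = 0.27). Cx3cr1, the receptor for fractalkine, had 11, 0 and 1 counts with sorafenib at day 28, against 5, 12 and 16 with water, so its groups overlapped.

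Immunoreceptors and their signalling partners held no gene that passed among 5, with a median of -0.51 and a range of -0.80 to 0.19 that also takes in Trem2, a lipid-sensing receptor, and Fcer1g, the common gamma chain of Fc receptors. Tyrobp, the adaptor that carries signals of TREM2 and related receptors, stood at -0.60 ± 0.31 (adjusted p = 0.25). Fcgr1a, the high-affinity receptor for IgG, stood at -0.51 ± 0.41 (adjusted p = 0.46). Fcgr2b, the inhibitory IgG receptor, was above 0, at 0.19 ± 0.34 (adjusted p = 0.77). The Fc gamma receptors are near-identical in places, so their counts may be split between them.

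Of the lysosomal genes 4 of 4 lay below 0 and none passed in the average (adjusted p between 0.066 and 0.44). Ctss encodes cathepsin S, the protease that trims the invariant chain of class II molecules. It had 13.5, 6.204 and 9.93 CPM with sorafenib at day 14, against 31.6, 13.6 and 16.8 CPM with water, and the groups did not overlap by a narrow margin. Its values at day 28 were 6.21, 22.6 and 15.1 CPM with sorafenib, against 20.5, 20.9 and 36.5 CPM with water. Ctss stood at -1.06 ± 0.35 at day 14 (adjusted p = 0.24) and -1.05 ± 0.31 in the average (adjusted p = 0.066). Cd68, a glycoprotein of macrophage lysosomes, was at -0.68 ± 0.33 (adjusted p = 0.22). Lyz2, lysozyme, was at -0.55 ± 0.41 (adjusted p = 0.42), and Laptm5, a lysosomal membrane protein of leukocytes, lay nearest to 0 of the 4.

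F13a1, the A chain of clotting factor XIII that tissue macrophages make, had an average change of -1.08 ± 0.34 (adjusted p = 0.077). Aif1, the actin-binding protein IBA1, stood at -1.19 ± 0.40 (adjusted p = 0.095), and Coro1a, another actin regulator of leukocytes, did not pass either. Spi1 went the other way. It had 13.1, 9.48 and 9.08 CPM with sorafenib at day 14, against 8.18, 6.91 and 6.996 CPM with water. By day 28, Spi1 had 8.46, 6.68 and 5.91 CPM with sorafenib, against 5.496, 4.28 and 5.82 CPM with water. All sorafenib libraries lay above all water libraries on both days, as did 10.5% of all genes at day 14 and 10.1% at day 28, each day alone. The change of 0.49 ± 0.17 in the average did not pass (adjusted p = 0.098). Spi1 was singled out after its values were seen. Its exons share 47 of 4137 bases with LOC120101909 on the opposite strand, which had 3.24, 4.48 and 2.78 CPM with sorafenib and 1.88, 1.93 and 3.63 CPM with water at day 14, and the part of these reads in the result was not tested.

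S100a8 and S100a9 encode the calprotectin subunits of neutrophils and monocytes. S100a8 had 0, 0 and 2 counts with sorafenib at day 14, against 2, 5 and 13 with water, a ratio of shares of 0.116 (95% interval 0.0131 to 0.476, counting error only). The libraries of day 28 gave it 1, 0 and 3 counts with sorafenib, against 18, 15 and 5 with water, a ratio of 0.207 (0.0538 to 0.576). It reached the level of the filter on low counts in 0 sorafenib and 3 water libraries, so the sign of its average of -2.62 ± 0.76, which did not pass (adjusted p = 0.061), was favoured by the filter. S100a9 had 2, 2 and 4 counts with sorafenib at day 14, against 4, 0 and 6 with water. At day 28 it had 3, 0 and 8 counts with sorafenib, against 19, 9 and 10 with water. In CPM these were 0.173, 0 and 0.531 against 0.932, 0.443 and 0.473, so the groups overlapped.

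The days were then taken alone. At day 14, 0 of 33 genes passed edgeR's test, as did 0% of all 17406 genes, and DESeq2 called 1, Cybb (adjusted p = 0.0163), among 185 lower and 253 higher of all genes. At an unadjusted p below 0.05, 14 lay lower, against 6.93% of all genes, and 1 (Spi1) lay higher, against 7.09%. Of the 33, 30 lay below 0 (all genes 49.8%), with a median of -0.88. Of the 33, 8 reached the filter's level in fewer than 3 sorafenib libraries and needed water libraries to enter, which favours a fold change below 0. Of the other 25, 22 lay below 0 with a median of -0.74, and 11 lay lower at an unadjusted p below 0.05. Without water day 14 replicate 2 the median was -0.45 and 3 genes had an unadjusted p below 0.05 in either direction, against 15 with all libraries. Without sorafenib day 14 replicate 6 these values were -0.58 and 6, and without sorafenib day 14 replicate 7 they were -0.76 and 6. All 3 sorafenib libraries lay below all 3 water libraries for 7 of the 33, C1qa, C1qb, Msr1, Cybb, Ctss, Cd83 and P2ry6, against 10.6% of all genes. They lay above for 1, Spi1, against 10.5%. P2ry6 is among the 8 that needed water libraries to enter.

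At day 28, 0 of 32 passed edgeR's test, as did 0% of all 17021 genes, and DESeq2 called 1, Adgre1 (adjusted p = 0.0346), among 131 lower and 148 higher of all genes. At an unadjusted p below 0.05, 12 lay lower, against 7.83% of all genes, and 0 lay higher, against 7.04%. Of the 32, 30 lay below 0 (all genes 50.2%), with a median of -0.71. Of the 32, 6 reached the filter's level in fewer than 3 sorafenib libraries and needed water libraries to enter. Of the other 26, 24 lay below 0 with a median of -0.60, and 10 lay lower at an unadjusted p below 0.05. The number with an unadjusted p below 0.05 was 5 without sorafenib day 28 replicate 2 (median -0.52), 7 without water day 28 replicate 4 (-0.57), 8 without sorafenib day 28 replicate 4 and 19 without the shallow replicate 3 (-0.94). All sorafenib libraries lay below all water libraries for 6 of the 32, C1qb, Mrc1, Adgre1, Cd83, P2ry6 and Aif1, against 11.9% of all genes. They lay above for 1, Spi1, against 10.1%. With sorafenib replicates 2 and 4 only, 19 of 32 lay below every water library, against 17.1% of all genes. Both of these counts include Cd83 and P2ry6, and the 19 also Ms4a7, which needed water libraries to pass the filter. Over both days 3 of 34, C1qb, Cd83 and P2ry6, lay below all water libraries on each day, against 3.36% of all genes. Spi1 lay above them on each day, for which the share of all genes was not computed.

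In the test of the effect at day 28 against the effect at day 14, edgeR called 0 of the 34 (as 0% of all genes in either direction), DESeq2 called 0, and 1, Ly86, lay lower at an unadjusted p below 0.05, against 2.16% of all genes, while 0 lay higher, against 2.26%. The difference, day 28 minus day 14, was below 0 for 18 (all genes 52.1%) and above 0 for 16, with a median of -0.07. Within the water rats, day 28 against day 14 gave 0 calls of 34 by edgeR, against 2.63% of all genes lower and 6.92% higher, with 13 below 0 (all genes 54.1%). DESeq2 called 2 higher, C1qb and C1qc, where it called 1828 of all 17210 genes higher. By edgeR these 2 had adjusted p of 0.078 and 0.10 and stood at 0.80 ± 0.25 and 0.69 ± 0.24 for water day 28 over water day 14. At an unadjusted p below 0.05, C1qb, C1qc and Ncf1 lay higher (all genes 15.2%) and Spi1 lower (all genes 12.5%). Without water day 14 replicate 2 edgeR called 1, Mrc1, among 447 of all 17840 genes higher at day 28. Without water day 28 replicate 2 it called 2, C1qb and Ncf1, among 1153 of 17584 higher at day 28. Day, age of the rats and the table the counts came from cannot be told apart there.

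**Figure D3:**
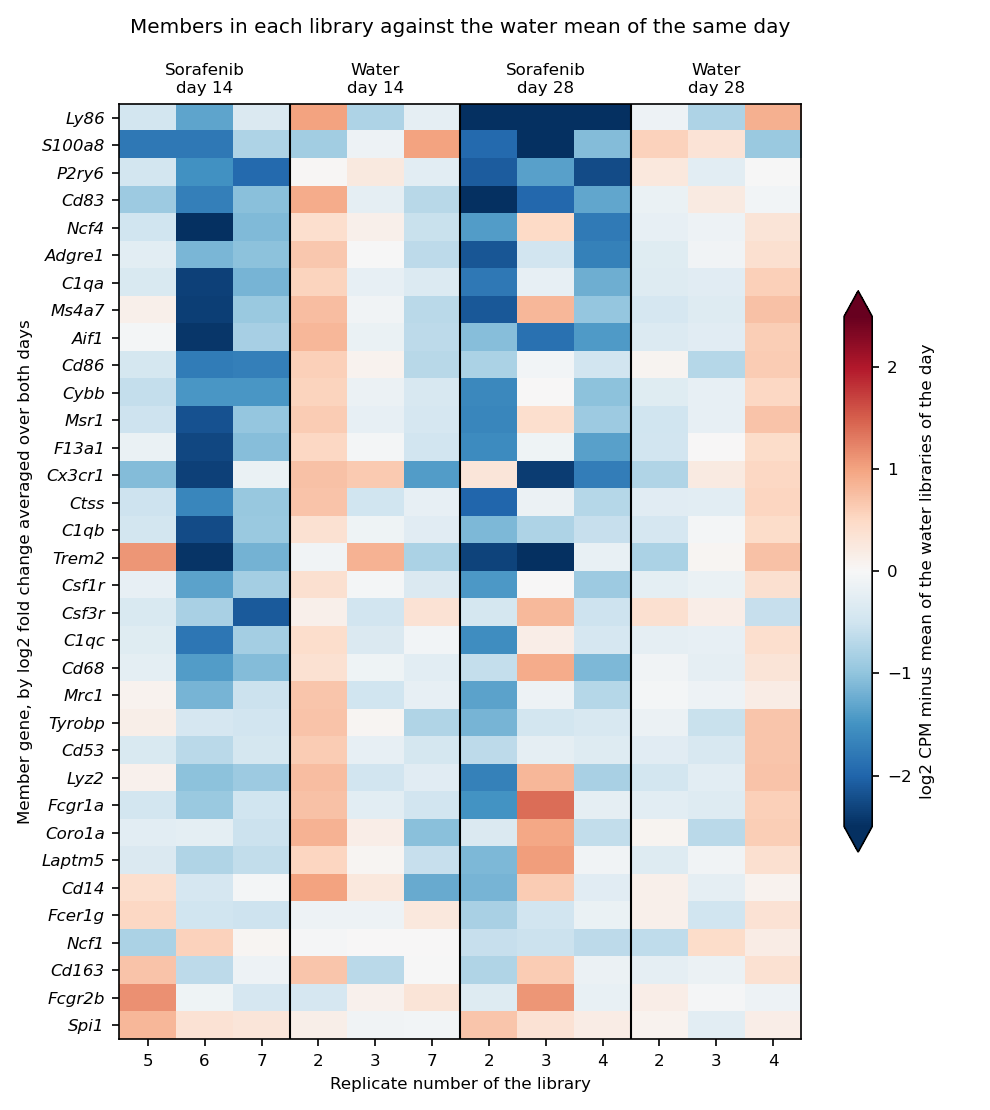
Log2 CPM minus the water mean of that day (colour, blue below and red above) for the 34 genes tested (rows, by average fold change) in the 12 libraries (columns, by group and replicate number). Sorafenib day 14 replicates 6 and 7 and sorafenib day 28 replicates 2 and 4 are blue through most rows, while sorafenib day 14 replicate 5 and the shallow sorafenib day 28 replicate 3 are pale or mixed.

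The genes varied together from library to library, so the numbers of genes below 0 given above are not numbers of separate observations. The mean over the 34 of log2 CPM relative to the water mean of the same day was -0.20, -1.32 and -0.80 in sorafenib day 14 replicates 5, 6 and 7, against 0.47, -0.10 and -0.37 in water replicates 2, 3 and 7. At day 28 it was -1.28, -0.29 and -0.84 in sorafenib replicates 2, 3 and 4, against -0.19, -0.18 and 0.37 in the water replicates. Sorafenib day 14 replicate 5 thus lay inside the water range, and sorafenib day 28 replicate 3 lay just below it. By the median over the 34 genes, this shallow replicate 3 stood at -0.09, inside the range of the water medians, -0.24 to 0.44. In it 18 genes lay below the water mean, and its lowest value, -3.87 for Trem2, came from 0 counts. Of the 34 genes, 27 lay below the lowest water library in sorafenib day 14 replicate 6, 25 in replicate 7 and 9 in replicate 5. At day 28 the numbers were 29 in replicate 2, 23 in replicate 4 and 10 in the shallow replicate 3, where another 12 lay above the highest water library.

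Within a group, the same library was the highest or lowest for most of the genes. Sorafenib day 14 replicate 5 was the highest of its group for 29 of the 34 genes and replicate 6 the lowest for 24, against 37.1% and 30.7% of all genes. Water day 14 replicate 2 was the highest for 27, against 32.8% of all genes. Sorafenib day 28 replicate 2 was the lowest for 23, against 24.1% of all genes, and the shallow replicate 3 the highest for 24, against 32.5%. Water day 28 replicate 4 was the highest for 27, against 42.2% of all genes.

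**Figure D4:**
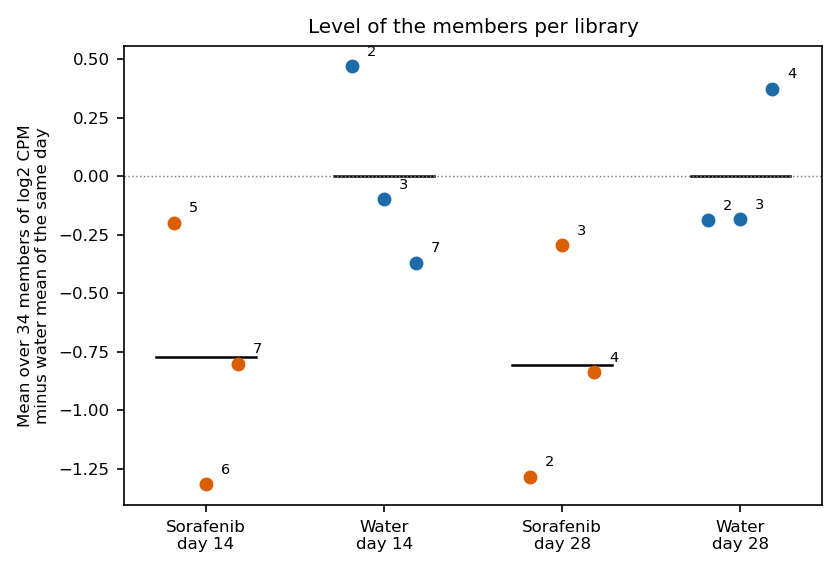
Mean over the 34 genes of log2 CPM minus the water mean of the same day (y axis) per library, with the replicate number beside each point and a line at the group mean, which is 0 for water by construction. Sorafenib libraries range from -1.32 to -0.20 and water libraries from -0.37 to 0.47, so the ranges overlap.

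Per kilobase of exon, the scale on which levels of different genes can be set side by side, the mean over the 12 libraries ran from 40.1 CPM per kb for Lyz2 to 0.181 for S100a9. Lyz2 was followed by Ncf1 (38.6), C1qc (19.6), Ctss (13.6), C1qa (11.6), Mrc1 (11.4), Csf1r (10.3) and C1qb (9.87). The spread between groups is wide beside the gaps between neighbours, as Lyz2 averaged 30.2 CPM per kb in sorafenib and 46.6 CPM per kb in water libraries of day 14. The genes that passed stood at very different levels, C1qa, C1qb and Cybb (6.397) among the 11 highest and Adgre1 (2.24), Cd83 (0.9501), Ly86 (0.727) and P2ry6 (0.504) in the lower part.

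Of 58 further myeloid genes, 57 were found and 56 tested in the average, of which 3 fell, 0 rose and 50 lay below 0 (median -0.48). Of all genes, 2.41% were called lower, 2% were called higher and 50.8% lay below 0. Siglec1, the sialic acid receptor CD169 of resident macrophages, fell by 1.67 ± 0.36 (adjusted p = 0.0269). It had 6.66, 2.07 and 2.30 CPM with sorafenib at day 14, against 12.6, 5.69 and 5.80 CPM with water. Its values at day 28 were 1.44, 0.835 and 2.52 CPM with sorafenib, against 10.9, 4.73 and 10.2 CPM with water. The groups overlapped at day 14 through sorafenib replicate 5 and were apart at day 28. Where a library was left out, its call was lost without water day 14 replicate 2 or 3, sorafenib day 14 replicate 6 or 7, water day 28 replicate 4 or sorafenib day 28 replicate 2, with adjusted p between 0.053 and 0.11.

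The other 2 encode chains of class II molecules, which present antigen to T cells. RT1-Da fell by 1.06 ± 0.27 (adjusted p = 0.0462) and RT1-Ba by 1.05 ± 0.28 (adjusted p = 0.0492). RT1-Da had 32.9, 17.7 and 25.0 CPM with sorafenib at day 14, against 78.6, 40.1 and 33.7 CPM with water. By day 28, RT1-Da had 12.4, 39.3 and 22.7 CPM with sorafenib, against 39.6, 41.0 and 61.0 CPM with water, and the sorafenib libraries lay below all water libraries on both days, narrowly for the shallow replicate 3. RT1-Da passed in 5 and RT1-Ba in 3 of 18 alternative fits, and of the fits that leave out a library only those without water day 14 replicate 7 or sorafenib day 28 replicate 3 kept either call. Without sorafenib day 28 replicate 2 their adjusted p was 0.13 and 0.16. Class II genes belong to a family of close copies, so their counts are uncertain.

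Of 8 ligands that act on myeloid cells, 5 were tested, 1 fell and 0 rose, against 2.41% and 2% of all genes. Cx3cl1, fractalkine, the ligand of Cx3cr1, fell by 0.65 ± 0.15 (adjusted p = 0.0295). It had 17.6, 12.8 and 12.95 CPM with sorafenib at day 14, against 22.5, 19.8 and 17.5 CPM with water. The libraries of day 28 gave it 18.2, 14.2 and 17.3 CPM with sorafenib, against 27.6, 24.4 and 39.5 CPM with water. The groups were apart at day 28, and at day 14 sorafenib replicate 5 lay just above water replicate 7. Where a library was left out, its call was lost without water day 14 replicate 2 or 3, sorafenib day 14 replicate 6 or 7, water day 28 replicate 4 or sorafenib day 28 replicate 2, with adjusted p between 0.057 and 0.081. Csf1 and Il34, the ligands of the receptor encoded by Csf1r, lay at -0.06 ± 0.23 and -0.03 ± 0.15 (adjusted p = 0.89 and 0.92).

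**Figure D5:**
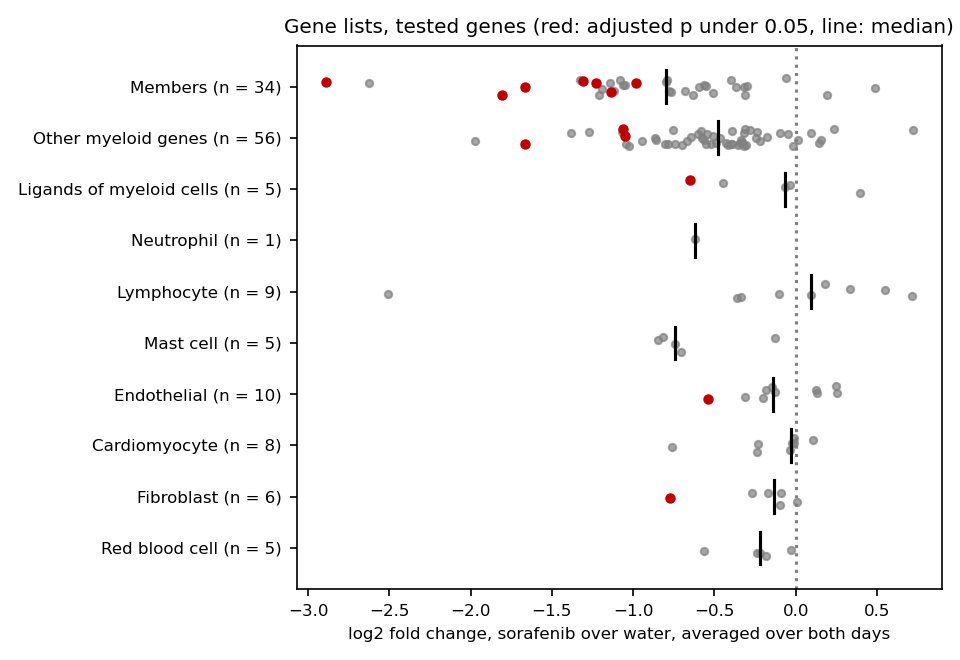
Log2 fold change of sorafenib over water averaged over both days (x axis) for the tested genes of each list (rows, n given), with red points past an adjusted p of 0.05 and a line at the median. The medians are -0.80 for the genes described here and -0.48 for other myeloid genes, against 0.09 for lymphocyte, -0.14 for endothelial, -0.13 for fibroblast, -0.03 for cardiomyocyte, -0.22 for red blood cell and -0.74 for mast cell markers, and the single neutrophil marker tested lies at -0.62.

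Markers of other cell types were counted in the same way, beside 2.41% of all genes called lower and 50.8% below 0 in the average. Of 12 neutrophil markers only Lcn2 was high enough to test, and their sum was 2.48 to 4.08 CPM with sorafenib and 3.05 to 4.43 CPM with water at day 14, and 3.92 to 5.85 against 5.11 to 7.21 CPM at day 28. Of 13 lymphocyte markers 9 were tested, 4 lay below 0 and 0 passed (median 0.09). Of 6 mast cell markers 5 were tested, 5 lay below 0 and 0 passed (median -0.74), with sums of 5.57 to 7.44 CPM with sorafenib and 6.36 to 11.5 CPM with water at day 14, and 4.32 to 7.52 against 6.86 to 8.54 CPM at day 28. Of 10 endothelial markers 6 lay below 0 and 1 fell, Emcn (-0.54 ± 0.13, adjusted p = 0.0381). Of 6 fibroblast markers 5 lay below 0 and 1 fell, Lum (-0.77 ± 0.16, adjusted p = 0.0231). Of the fits that leave out a library, Emcn passed only in those without water day 14 replicate 2 or 7 or sorafenib day 28 replicate 4, and Lum missed in those without water day 14 replicate 3, sorafenib day 14 replicate 6 or sorafenib day 28 replicate 2, where it had an adjusted p between 0.054 and 0.083. Of 8 cardiomyocyte markers 7 lay below 0 and 0 passed (median -0.03). At day 28, 8 of 8 cardiomyocyte and 6 of 6 fibroblast markers lay below 0 (medians -0.20 and -0.28). At day 14, 4 of 8 and 2 of 6 did (medians 0.03 and 0.13). Of 5 red blood cell markers 0 passed and 5 lay below 0 in the average (median -0.22), with medians of -0.66 at day 28 and 0.27 at day 14. Their sum was 1015 to 1579 CPM with sorafenib and 1621 to 2507 CPM with water at day 28, without overlap, and 1389 to 1668 against 931.1 to 1409 CPM at day 14. No marker was at 0 in all libraries, and the part of other cell types in the results above was not tested.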

How the data were processed

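Rat heart RNA was depleted of ribosomal RNA and sequenced. The authors deposited counts of reads over genes of mRatBN7.2 from featureCounts 2.0.1 (paired mode, strand ignored, per the file headers). The submitters' processing notes name STAR with no version. The kit marks strand, per the labels, which the counts do not use. The file of day 14 holds 2 columns that fit no sample, which were left out.

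Groups came from the labels. Counts were tested on all genes with edgeR 4.0.16 in R 4.3.3 (filterByExpr, TMM, robust quasi-likelihood test, Benjamini-Hochberg adjusted p below 0.05), within each day, and in a fit of all 12 libraries for the average of both days and for the difference between days. SE is the log2 fold change over the root of F. CPM are TMM-normalized, and relative levels per library use log2 CPM with a prior count of 2. Each fit was repeated with DESeq2 1.42.0, with RLE factors, without a filter, with a filter of 1 CPM in 3 libraries, without robust estimation, from all groups together, with the number in the title as a block, and without each library in turn. Code was tested on simulated counts. Libraries of a group all differed beyond sampling noise.

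The genes, the lists and the averaged comparison were chosen with earlier results of these data known. Full values go to genes past the threshold in any comparison and to the 3 of smallest p at each day and in the difference, and at most 2 others per role serve as examples. From each other list the genes past the threshold are named. Cd163, Spi1, Fcgr2b, Cx3cr1, Ms4a7, S100a9, Csf1 and Il34 fall outside this rule and were chosen after their values were seen. With 13746366 to 26403196 counts in 11 libraries, 1 count is 0.0379 to 0.0727 CPM, and intervals cover counting error only.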

Additional observations from a re-analysis of the deposited data

How the results depend on the processing

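The median log2 fold changes of the genes moved by less than the pooled SD of the per-library level (0.46) under every alternative run. This SD comes from the same libraries, so the comparison cannot show that the medians are stable. At day 14 the median was -0.88 with all libraries, -0.45 without water replicate 2 and -1.31 without sorafenib replicate 5. The 7 genes called in the average kept their direction in every alternative that tested them. Cd14, Cd163, Coro1a, Cx3cr1 and Fcgr2b had an average of either sign across the alternatives. Leaving out a library, between 30 and 33 of 34 lay below 0 in the average, and at day 28 as few as 26 of 32 did (without water replicate 4). The median of the difference between days lay between -0.40 and 0.37, on either side of 0, and that of the water comparison between -0.34 and 0.39. Of 34 genes in the average of both days, DESeq2 called 11 (961 lower and 875 higher of all 18174 genes), the stricter filter 4 (384 and 461 of 16563) and the block 0 (26 and 11 of 18174), and the fits without a library called between 0 and 8. DESeq2 called 1 at day 14 and 1 at day 28. For water day 28 against water day 14, DESeq2 called 2 higher (1828 of all 17210 genes) and the block 2 lower (767 of 17210). The fits without a library called between 0 and 2. Whether the numbers in the titles pair the samples is not settled by the correlations between libraries. After removal of group means, same-numbered libraries of day 28 correlated at 0.115 (replicate 2), 0.00237 (replicate 3) and 0.161 (replicate 4). For sorafenib replicates 2 and 4 this was the highest value with any water library of the day. The shallow sorafenib replicate 3 correlated better with water replicate 2 (0.0297). At day 14 the pair numbered 7 correlated at 0.0521, also the highest for that sorafenib library. The day 14 groups share 1 number, so day 14 alone was not fitted with a block. In the blocked fit of the average, the day 14 effect therefore rests on the pair numbered 7 alone. With the replicate block, the count in the average was 0 of 34 with a median of -0.75 and adjusted p of the 7 between 0.19 (P2ry6) and 0.35 (Cd83). In the water comparison with this block, Tyrobp and Coro1a passed as lower with a median of -0.34, opposite to 0.06 without it. Only numbers 2 and 3 occur in both water groups, so that fit rests on these numbers. Hearts of day 14 and day 28 are not from the same rat. The same-numbered water libraries of the 2 days correlated at 0.0179 (number 2) and -0.0229 (number 3). The depth of sorafenib day 28 replicate 3 limits genes of low level such as Ly86, P2ry6, Cd83 and S100a8, and without it the count was again 7.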
